A study of Homo sapiens with 6 samples.

Results

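The nuclear genes of respiratory complexes II to V were followed in MDA-MB-231 cells, an established human triple-negative breast cancer line, after transfection with a plasmid carrying ABI2 or with an empty vector. Members were the rows of the deposited gene table named SDHA to SDHD, with a name beginning UQCR, named CYC1 or CYCS, with a name beginning COX4, COX5, COX6, COX7 or COX8, or with a name beginning ATP5. The rule took 53 of the 20260 complete rows and used no measured value. They comprised 5 rows for complex II, 11 for complex III with cytochrome c, 17 for complex IV and 20 for complex V. Messenger RNA was sequenced from 3 libraries of cells given the ABI2 plasmid and from 3 libraries of cells given the empty vector, all of the same line and all transfected. ABI2 is an adaptor subunit of the WAVE complex, which controls branched actin assembly. The promoter on the plasmid and the share of cells that took it up are not stated in the labels. Nothing in the labels says that the libraries of a group came from separate cultures, so p-values measure the spread between these libraries, which may be technical.

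The respiratory chain passes electrons from NADH and succinate to oxygen and pumps protons across the inner mitochondrial membrane, and ATP synthase uses the returning protons to make ATP. Complex II (succinate dehydrogenase) also runs a step of the citric acid cycle and is encoded wholly in the nucleus. Complex III (the cytochrome bc1 complex) hands electrons to cytochrome c, complex IV (cytochrome c oxidase) passes them to oxygen, and complex V is the ATP synthase. Complexes III, IV and V each combine nuclear subunits with subunits made inside the mitochondrion.

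Library totals ranged from 38.45 to 40.31, in units of 1e6 deposited counts. ABI2 itself had 221, 220.5 and 225 CPM (reads per 1e6 after TMM scaling of library size) with the ABI2 plasmid, against 82.9, 81.1 and 83.3 CPM with the empty vector. ABI2 was thus higher by 1.43 ± 0.04 on the log2 scale (SE, edgeR adjusted p = 1.23e-05), and each label matched the targeted gene. All 6 mesenchymal markers examined were detected in every library, and VIM, the mesenchymal filament vimentin, had 3238 to 3376 TPM (transcripts per 1e6) with the plasmid and 2915 to 2986 TPM with the empty vector. They did not move together: CAV1 had 37.0 to 50.2 TPM with the plasmid and 90.5 to 96.8 TPM with the empty vector, and FN1 had 37.6 to 40.7 TPM and 42.8 to 50.3 TPM in the same order, both lower in every plasmid library. The oestrogen receptor gene ESR1 had at most 0.0147 TPM with the plasmid and 0.0465 TPM with the empty vector, and the epithelial cadherin CDH1 was at 0 in every library. The 8 luminal and epithelial markers together ranged from 392 to 426 TPM with the plasmid and from 227 to 264 TPM with the empty vector, most of it KRT8, and what part this had in the results was not tested. The white-cell marker PTPRC was at 0 in every library.

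Most tested members were modestly higher with the ABI2 plasmid, while a smaller set that included UQCRC2, CYCS and ATP5F1 was lower. The direction of much of that lower set depended on a correction for GC content: 7 of the 10 members called lower turned sign with it, CYCS to 0.28 and ATP5F1 to 0.15 on the log2 scale, while UQCRC2 stayed at -0.55. Of the 23 members called higher, 17 were also called higher with that correction, and 13 with a correction for GC content and length. Of the 53 rows, 44 had enough counts to be tested. In edgeR's quasi-likelihood test over 13325 genes, with a Benjamini-Hochberg adjusted p under 0.05 as the threshold, 23 members (52.3%) were higher with the ABI2 plasmid, 10 (22.7%) were lower and 11 did not pass. Over all tested genes, 35.1% were called higher and 38.0% lower, so the members had a larger share called higher and a smaller share called lower. The median log2 fold change was 0.28 over the members and -0.01 over all tested genes. Members ranged from -1.19 for UQCRC2 to 0.90 for CYC1. The 3 libraries of each group did not overlap for 34 members, 24 of them higher and 10 lower. Over all tested genes the groups did not overlap for 77.9%, with the plasmid group higher for 37.8% and lower for 40.1%. Only UQCRC2 and CYCS fell at least 2-fold, which is 4.55% of the tested members, against 24.9% of all tested genes. No member rose 2-fold, against 1.85% of all tested genes. In RNA from a whole culture, fewer cells of a kind and less RNA per cell cannot be told apart.

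**Figure D1:**
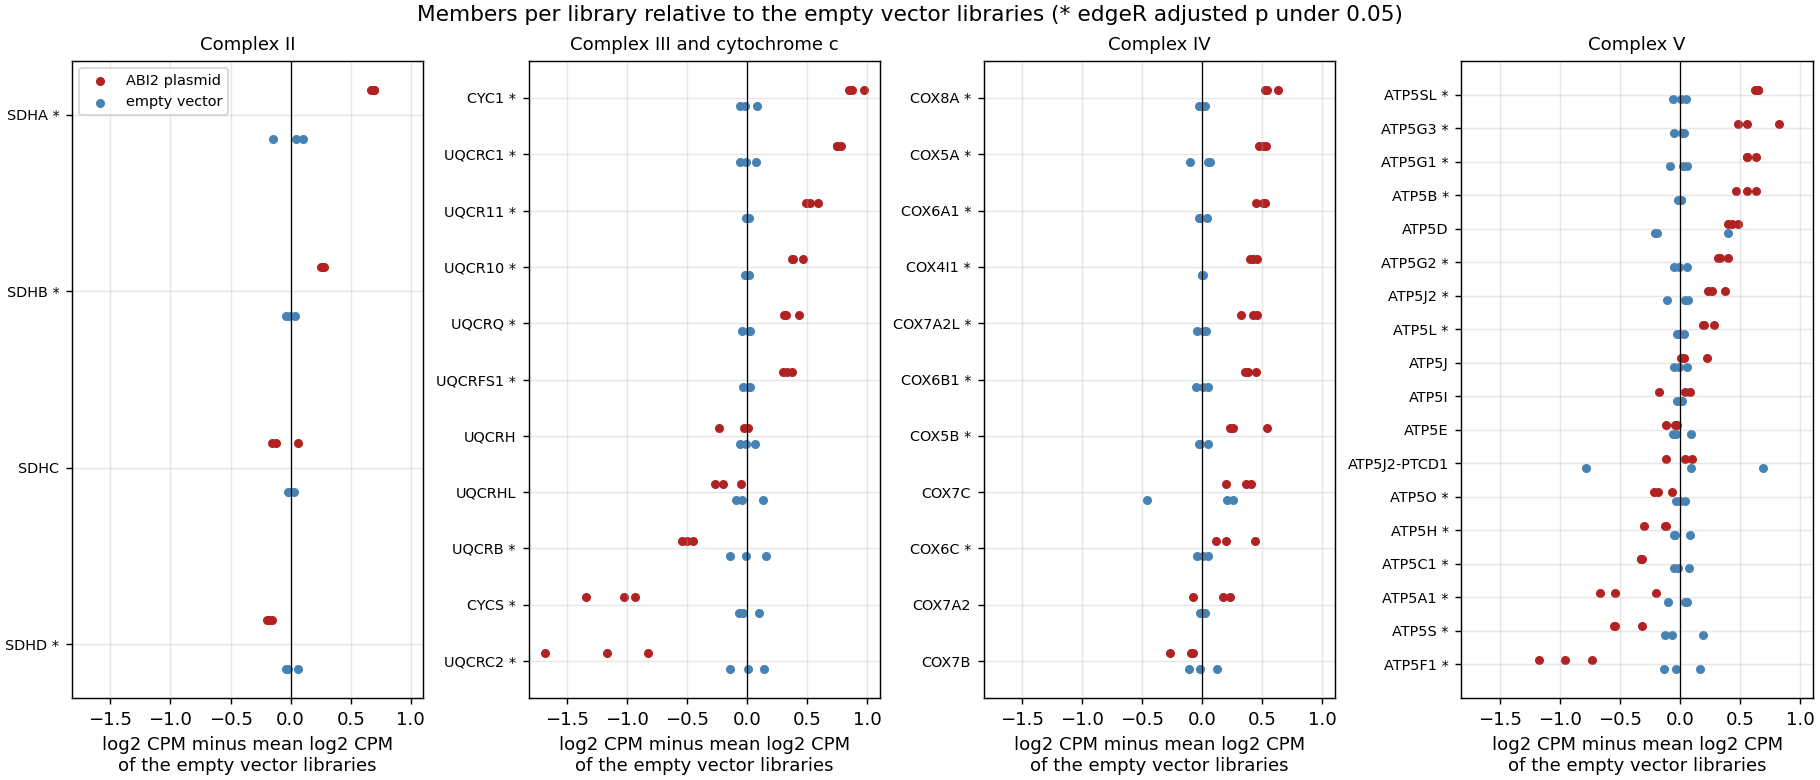
Each tested member in each library, as log2 CPM minus the mean log2 CPM of the 3 empty vector libraries (horizontal axis), with 1 panel per complex, ABI2 plasmid libraries above in red and empty vector libraries below in blue. An asterisk marks an edgeR adjusted p under 0.05: in complex IV all 8 called members lie to the right of 0, while complexes II, III and V hold called members on both sides.

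Compared per transcript length, the members spanned a wide range of levels. The most abundant transcripts by deposited TPM were those of the small complex IV subunits COX6A1, at 1702 ± 45.3 TPM with the ABI2 plasmid and 1332 ± 41.9 TPM with the empty vector (SD, n = 3 each), and COX8A, at 1595 ± 61.6 TPM and 1189 ± 37.7 TPM in the same order. The catalytic beta subunit of ATP synthase, ATP5B, had 940.1 ± 50.5 TPM with the plasmid and 707 ± 8.52 TPM with the empty vector. Among the subunit genes that were tested, CYCS and UQCRC2 had the lowest levels with the plasmid apart from UQCRHL and 2 rows that are not subunits, at 26.9 ± 3.69 TPM and 34.8 ± 10.2 TPM, against 62.5 ± 2.53 TPM and 89.6 ± 6.73 TPM with the empty vector. The complex IV isoforms known from other tissues were at or near 0: COX4I2, a lung isoform, COX6A2, a heart and muscle isoform, and COX7B2, a testis isoform, had no count in any library. A count of 0 allows up to 3 counts, or 0.0771 to 0.079 CPM per library with the plasmid and 0.0714 to 0.0751 CPM per library with the empty vector, counting error only. COX7A1, another heart and muscle isoform, had 2, 0 and 0 counts with the plasmid and 5, 2 and 2 counts with the empty vector. The 3 muscle markers ACTA1, MYH7 and CKM summed to at most 0.299 TPM with the plasmid and 0.473 TPM with the empty vector, with MYH7 at 0 in every library. COX6B2 and COX8C, known from testis, the pseudogene row ATP5EP2 and the row ATP5L2 had at most 7 counts in any library. A second row named SDHD, which overlaps the SDHD gene on the same strand, had 16, 2 and 4 counts with the plasmid and 3, 4 and 6 counts with the empty vector. These 9 rows were not tested.

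**Figure D2:**
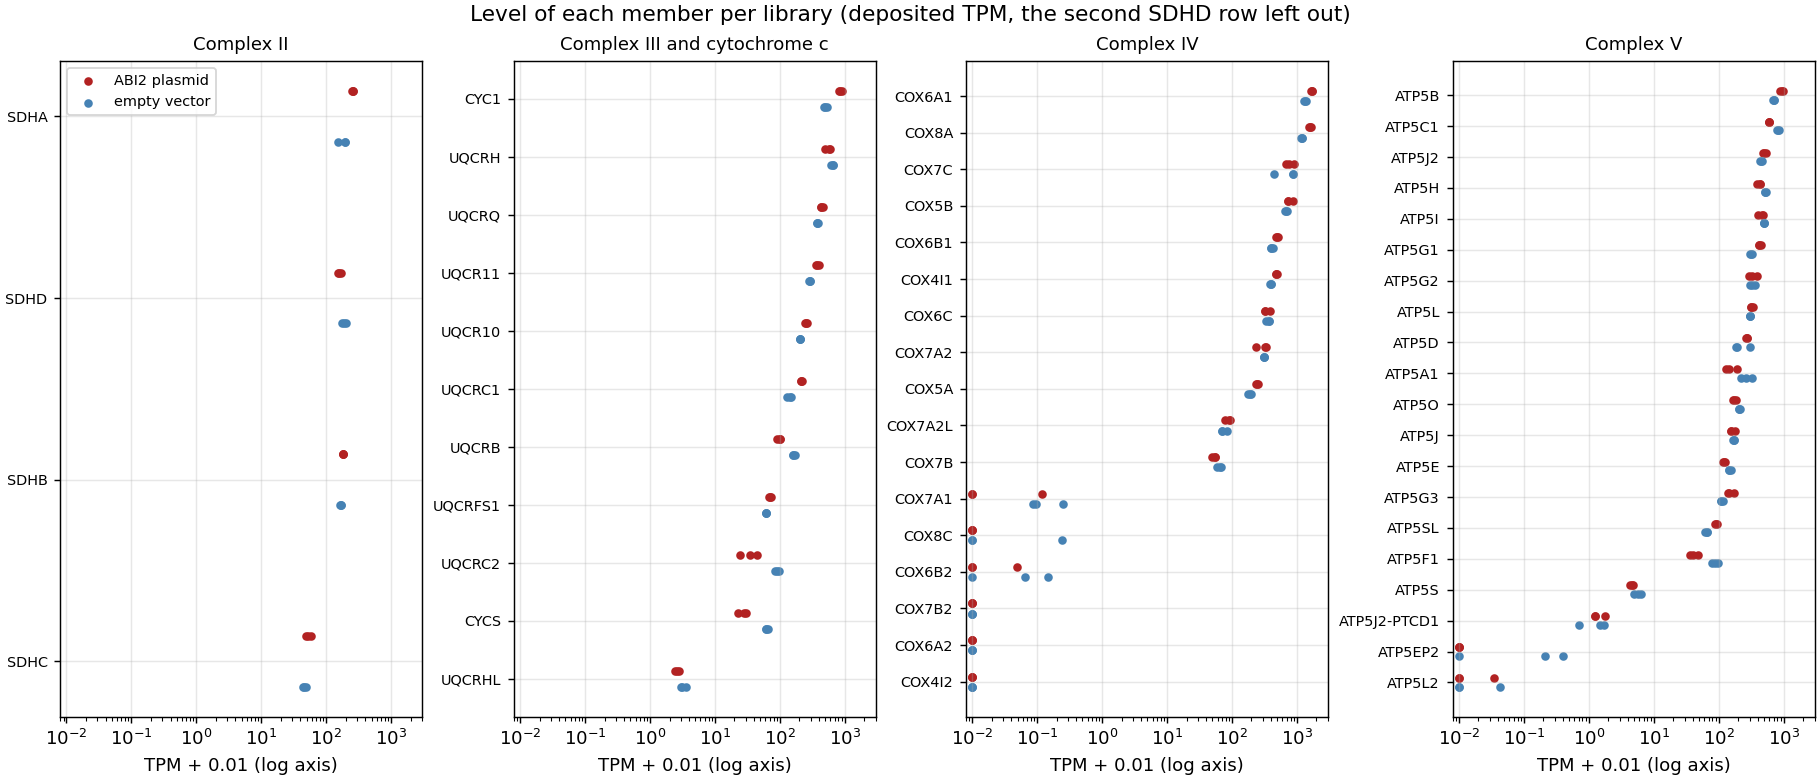
Deposited TPM of each member in each library, on a log axis after adding 0.01, with 1 panel per complex, ABI2 plasmid libraries in red above empty vector libraries in blue. The tissue isoforms COX4I2, COX6A2 and COX7B2 sit at the left edge, at 0 TPM, while COX6A1 and COX8A are furthest to the right in both groups.

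In complex II, SDHA rose, SDHB rose less, SDHD fell slightly and SDHC did not pass. SDHA (ENSG00000073578, chromosome 5, 218241 to 256700 on GRCh38) encodes the flavoprotein that oxidises succinate. It had 339, 345 and 346 CPM with the ABI2 plasmid, against 219, 193 and 229 CPM with the empty vector, which gave a log2 fold change (ABI2 plasmid over empty vector) of 0.68 ± 0.07 (SE, edgeR adjusted p = 0.000101). Every plasmid library lay above every empty vector library. SDHB, the iron-sulfur subunit, had 129, 131 and 132 CPM, against 109, 112 and 106 CPM with the empty vector (log2 fold change 0.27 ± 0.05, adjusted p = 0.00148). SDHC and SDHD anchor the complex in the membrane. SDHD (ENSG00000204370, chromosome 11, 112086773 to 112120013) had 118, 122 and 119 CPM with the plasmid and 131, 141 and 133 CPM with the empty vector (log2 fold change -0.18 ± 0.05, adjusted p = 0.0137). Its groups did not overlap, but without empty vector library 2 its adjusted p was 0.0584. SDHC had 166, 162 and 188 CPM with the plasmid and 177, 179 and 184 CPM with the empty vector (log2 fold change -0.07 ± 0.07, adjusted p = 0.379), and the groups overlapped. Without plasmid library 3, its log2 fold change was -0.13 with an adjusted p of 0.0399. On the deposited TPM, which account for transcript length, the log2 difference of SDHC was 0.20, so its sign depends on the unit.

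The coding sequences of the pair that moved apart open differently in base composition, which is shown because the fold changes ran with GC content (given further on). The first 60 coding bases, with G and C in capitals, hold 46 G or C bases in SDHA and 38 in SDHD:
SDHA: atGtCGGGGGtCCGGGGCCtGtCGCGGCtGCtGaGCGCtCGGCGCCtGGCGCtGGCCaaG
SDHD: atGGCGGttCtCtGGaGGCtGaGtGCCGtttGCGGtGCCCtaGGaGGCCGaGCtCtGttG
Over the whole annotated transcript the GC content was 55.1% for SDHA and 41.0% for SDHD. Over the whole coding sequence it was 55.7% and 53.5%, so the pair differed little there.

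In complex III, 6 of 11 members rose and 3 fell, while 2 missed the threshold, and the median log2 fold change was 0.34. These are 54.5% and 27.3%, against 35.1% and 38.0% of all tested genes. The complex held the largest rise and the largest fall among all members. CYC1, the haem-carrying cytochrome c1, had 637, 648 and 695 CPM with the ABI2 plasmid, against 349, 341 and 374 CPM with the empty vector (log2 fold change 0.90 ± 0.06, edgeR adjusted p = 1.89e-05). UQCRC1 (ENSG00000010256, chromosome 3, 48599003 to 48610037), the first of a pair of core proteins on the matrix side, had 261, 262 and 268 CPM, against 155, 149 and 164 CPM with the empty vector (log2 fold change 0.76 ± 0.05, adjusted p = 2.22e-05). In both genes the plasmid libraries lay well above the empty vector libraries. UQCRC2 (ENSG00000140740, chromosome 16, 21952660 to 21983660), the partner core protein, went the other way. It had 69.9, 55.1 and 38.4 CPM with the plasmid and 124, 136 and 112 CPM with the empty vector (log2 fold change -1.19 ± 0.21, adjusted p = 0.00246). Its plasmid libraries differed from each other more than those of UQCRC1, yet all lay below the empty vector libraries.

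The start of each core protein's coding sequence is shown with G and C in capitals, 43 of 60 bases in UQCRC1 and 29 of 60 in UQCRC2:
UQCRC1: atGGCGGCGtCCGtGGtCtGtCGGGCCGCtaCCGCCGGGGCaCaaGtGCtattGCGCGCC
UQCRC2: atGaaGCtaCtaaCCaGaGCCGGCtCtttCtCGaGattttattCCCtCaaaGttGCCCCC
The whole transcripts had a GC content of 59.5% for UQCRC1 and 45.5% for UQCRC2.

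Cytochrome c itself, the CYCS product that shuttles electrons to complex IV and takes part in apoptosis, fell as well. CYCS had 56.1, 70.1 and 74.4 CPM with the ABI2 plasmid, against 139, 153 and 136 CPM with the empty vector (log2 fold change -1.09 ± 0.11, edgeR adjusted p = 0.000117). UQCRB, a small subunit near the ubiquinone site, had 152, 157 and 148 CPM, against 213, 239 and 194 CPM with the empty vector (log2 fold change -0.50 ± 0.08, adjusted p = 0.00095). The other members that rose were the Rieske iron-sulfur protein UQCRFS1 and the small subunits UQCR11, UQCR10 and UQCRQ, with log2 fold changes of 0.34 to 0.54. Of these, UQCR11 had the smallest adjusted p (4.3e-05), with 309.7, 302 and 323 CPM against 213, 215 and 217 CPM with the empty vector. UQCRH, the hinge protein beside cytochrome c1, had 210.3 ± 18.5 CPM with the plasmid and 223 ± 9.41 CPM with the empty vector and did not pass (adjusted p = 0.34). UQCRHL, a near copy of UQCRH, had 3.62 ± 0.273 CPM and 4.08 ± 0.34 CPM in the same order (adjusted p = 0.261), and reads may have been split between the copies.

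In complex IV, 8 of 11 tested members rose in edgeR's test and none fell, while 3 missed the threshold, and the median log2 fold change was 0.40. The share that rose was 72.7%, against 35.1% of all tested genes. At an unadjusted p under 0.05 the count that fell was 0 as well, and it was 0 with DESeq2. COX7B was called lower without TMM scaling (log2 fold change -0.24, adjusted p = 0.027) and by limma on the deposited TPM (-0.28, adjusted p = 0.0187). By limma 5 members of the complex were higher (45.5%, against 28.3% of all genes) and 1 lower. With the correction for transcript GC content described further on, 7 were higher (63.6%, against 28.6%) and 0 lower (against 22.6%). There COX4I1, COX5B, COX6B1 and COX8A lost their calls, at -0.05, 0.14, -0.04 and 0.03, while COX7A2, COX7B and COX7C gained calls. Without that correction, COX8A had 499, 496 and 532 CPM with the ABI2 plasmid, against 345, 339 and 349 CPM with the empty vector (log2 fold change 0.56 ± 0.05, edgeR adjusted p = 3.89e-05). COX6A1, the form of subunit 6A found outside muscle, had 592, 617 and 626 CPM, against 427, 430.1 and 447 CPM with the empty vector (log2 fold change 0.49 ± 0.04, adjusted p = 5.54e-05). COX4I1, the common form of the regulatory subunit 4, had 225, 229 and 234 CPM, against 170.4, 172 and 171 CPM with the empty vector (log2 fold change 0.42 ± 0.04, adjusted p = 9.06e-05). COX5A, which sits on the matrix side, had 170.2, 177 and 174 CPM, against 114, 128 and 126 CPM with the empty vector (log2 fold change 0.50 ± 0.06, adjusted p = 0.000203). In each of these genes the lowest plasmid library was above the highest empty vector library. COX6B1, COX7A2L and COX5B also rose, with log2 fold changes of 0.40, 0.40 and 0.35. COX7A2L is known as a factor that joins complexes III and IV into supercomplexes. COX5B had 320.4, 327 and 396 CPM with the plasmid and 269, 268 and 282 CPM with the empty vector, so plasmid library 3 was the highest of the 6.

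The remaining complex IV members moved least without GC correction. COX6C had 153, 161 and 191 CPM with the ABI2 plasmid, against 141, 145 and 136 CPM with the empty vector (log2 fold change 0.26 ± 0.09, edgeR adjusted p = 0.0312). Its call was lost without any of the empty vector libraries (adjusted p = 0.0711, 0.0524 and 0.101), and on the deposited TPM its log2 difference was -0.06. COX7A2, the common form of subunit 7A, had 147, 124 and 153 CPM, against 129, 133 and 130.1 CPM with the empty vector (log2 fold change 0.11 ± 0.08, adjusted p = 0.246). The groups overlapped through plasmid library 2, and leaving it out gave 0.21 on the log2 scale (adjusted p = 0.0184). COX7B had 86.3, 85.3 and 75.6 CPM with the plasmid and 90.0, 99.2 and 84.5 CPM with the empty vector (adjusted p = 0.147), and the groups overlapped. COX7C had 368, 328 and 379.5 CPM with the plasmid and 329, 342 and 207 CPM with the empty vector (log2 fold change 0.29 ± 0.19, adjusted p = 0.211). Empty vector library 3 stood apart with 8285 counts, against 13829 and 13943 in the other empty vector libraries, and leaving it out gave 0.09 on the log2 scale (adjusted p = 0.329).

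In complex V, 7 of 18 tested members rose and 6 fell, while 5 missed the threshold, and the median log2 fold change was 0.04. These shares, 38.9% higher and 33.3% lower, were close to the 35.1% and 38.0% over all tested genes. Without GC correction the counts thus set complex V apart in neither direction. With the correction for transcript GC content described further on, 9 were higher, against 28.6% of all genes, and 2 lower, against 22.6%. GC values from the coding sequence gave 11 higher, against 31.0% of all genes, and 0 lower, against 23.5%. Whether the counts set complex V apart thus depended on the correction. Without it, the directions differed within the F1 head, where catalysis takes place. The beta subunit ATP5B had 1003, 1067 and 1123 CPM with the ABI2 plasmid, against 716, 729.6 and 731 CPM with the empty vector (log2 fold change 0.55 ± 0.05, edgeR adjusted p = 6.6e-05). The alpha subunit ATP5A1 had 230.4, 182 and 167 CPM, against 275, 272 and 246 CPM with the empty vector (log2 fold change -0.45 ± 0.12, adjusted p = 0.0129). The gamma subunit ATP5C1, the turning shaft, had 417, 417 and 419.7 CPM, against 516, 549 and 505 CPM with the empty vector (log2 fold change -0.32 ± 0.05, adjusted p = 0.000527). The groups did not overlap in any of the 3 genes. The small epsilon subunit ATP5E had 280.1 ± 9.36 CPM with the plasmid and 293 ± 17.2 CPM with the empty vector (adjusted p = 0.325). The delta subunit ATP5D had 151, 155 and 159 CPM, against 100.3, 99.1 and 151 CPM with the empty vector (log2 fold change 0.41 ± 0.17, adjusted p = 0.0617). Empty vector library 3 stood apart with 6015 counts, against 4219 and 4038 in the others, and without it ATP5D had a log2 fold change of 0.63 (adjusted p = 0.000242).

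The 3 genes of subunit c, which encode the same mature ring protein with different import sequences, all rose in edgeR's test without GC correction. Of all tested genes 35.1% were called higher. ATP5G1 (ENSG00000159199, chromosome 17, 48892765 to 48895871) had 154, 155 and 163 CPM with the ABI2 plasmid, against 98.9, 107 and 109 CPM with the empty vector (log2 fold change 0.58 ± 0.06, edgeR adjusted p = 8.72e-05). ATP5G3 had 419, 439 and 531 CPM, against 289, 307 and 303 CPM with the empty vector (log2 fold change 0.63 ± 0.09, adjusted p = 0.000606). ATP5G2 had 213, 223 and 211 CPM, against 177, 164 and 168 CPM with the empty vector (log2 fold change 0.35 ± 0.05, adjusted p = 0.000594). No plasmid library overlapped an empty vector library in any of them. On the deposited TPM the log2 difference of ATP5G2 was 0.03 (limma adjusted p = 0.802). With correction for transcript GC content ATP5G2 had -0.12 and lost its call, while ATP5G1 had 0.19 and ATP5G3 2.08, both still called higher. With GC and length correction ATP5G2 was called lower, at -0.29 (edgeR adjusted p = 0.0113). In that fit ATP5G1 had 0.02 and lost its call, and ATP5G3 was called higher, at 2.21. ATP5G1 made up 48.9%, 44.3% and 46.9% of the summed subunit c TPM with the plasmid, against 39.3%, 43.0% and 43.0% with the empty vector.

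Without GC correction the peripheral stalk, which holds the F1 head still, had only falls or members that did not pass. Of all tested genes 38.0% were called lower. ATP5F1 (ENSG00000116459, chromosome 1, 111448936 to 111462773), its subunit b, had 94.9, 81.3 and 70.1 CPM with the ABI2 plasmid and 154, 177 and 144 CPM with the empty vector (log2 fold change -0.95 ± 0.13, edgeR adjusted p = 0.000465). ATP5H, its subunit d, and ATP5O, the protein that ties the stalk to the head, fell by 0.18 and 0.16 on the log2 scale, with adjusted p-values of 0.0484 and 0.0433. Both calls sat at the threshold and were lost without any of 5 of the 6 libraries, all but plasmid library 1, with adjusted p-values up to 0.163 and 0.152. ATP5J, coupling factor 6, had 68.2, 67.0 and 77.9 CPM with the plasmid and 66.4, 69.3 and 64.4 CPM with the empty vector (adjusted p = 0.31), with overlapping groups. ATP5J overlaps GABPA on the opposite strand, and the counts may not separate them. With correction for transcript GC content ATP5F1 had 0.15, ATP5H 0.55, ATP5O -0.17 and ATP5J 0.87. There ATP5H and ATP5J were called higher and ATP5O lower. GC values from the coding sequence gave -0.01, 1.04, 0.64 and 1.70 in the same order, all but ATP5F1 called higher. The direction of the stalk genes thus depended on the correction. Of the small membrane subunits, ATP5J2 and ATP5L rose by 0.29 and 0.23 on the log2 scale without correction. ATP5I had 102 ± 9.51 CPM with the plasmid and 102 ± 1.6 CPM with the empty vector. The readthrough row ATP5J2-PTCD1, which shares its sequence with ATP5J2, had at most 1.98 CPM and did not pass.

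The first 60 coding bases of a complex V gene that rose and of one that fell are shown with G and C in capitals, 33 bases in ATP5G1 and 39 in ATP5F1:
ATP5G1: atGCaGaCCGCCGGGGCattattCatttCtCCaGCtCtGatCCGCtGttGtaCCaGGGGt
ATP5F1: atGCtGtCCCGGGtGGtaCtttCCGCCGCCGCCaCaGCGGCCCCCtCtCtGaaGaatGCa
Here the start runs opposite to the transcript as a whole, which had a GC content of 54.7% for ATP5G1 and 43.1% for ATP5F1.

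Tested rows taken by name that are not subunits of ATP synthase were ATP5SL, ATP5S and the readthrough row ATP5J2-PTCD1. In the complex V counts ATP5SL was among the rises, ATP5S among the falls and ATP5J2-PTCD1 among those that missed the threshold. ATP5SL, now named DMAC2 and known for complex I assembly, had 70.3, 69.3 and 70.3 CPM with the ABI2 plasmid and 43.2, 46.4 and 45.2 CPM with the empty vector (log2 fold change 0.64 ± 0.06, edgeR adjusted p = 5.68e-05). ATP5S, now named DMAC2L, had 11.7, 11.8 and 13.7 CPM, against 19.6, 16.3 and 15.7 CPM with the empty vector (log2 fold change -0.48 ± 0.12, adjusted p = 0.01). The groups of neither gene overlapped. Reads of genes that overlap on opposite strands, among them ATP5A1 with HAUS1, SDHD with TIMM8B and COX4I1 with EMC8, could not be told apart where the counting ignored strand, and the labels state no strand setting.

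Partner subunits that moved apart also differed in their ratio within each library. UQCRC1 to UQCRC2, by deposited TPM, was 4.73, 6.05 and 8.84 with the ABI2 plasmid, against 1.57, 1.36 and 1.79 with the empty vector. The ratio of CYC1 to CYCS was 35.8, 29.9 and 29.6 with the plasmid and 8.18, 7.22 and 8.75 with the empty vector. ATP5B to ATP5A1 stood at 4.6, 6.55 and 7.53, against 2.15, 2.62 and 3.23 with the empty vector. In complex II, SDHA to SDHD was 1.62, 1.51 and 1.66 with the plasmid, against 1.09, 0.778 and 1.05 with the empty vector. SDHA to SDHB was 1.4, 1.43 and 1.4 with the plasmid and 1.14, 0.928 and 1.21 with the empty vector. For all these pairs every plasmid library exceeded every empty vector library. Most of these gaps did not hold with the correction for transcript GC content described further on. In that fit CYC1 and CYCS had log2 fold changes of 0.31 and 0.28, SDHA had 0.28 against 1.26 for SDHD and 0.43 for SDHB, and ATP5B and ATP5A1 had 0.41 and 0.15, while UQCRC1 and UQCRC2 stayed apart at 0.21 and -0.55. With GC values from the coding sequence, SDHA had 0.43 against -0.29 for SDHD and 0.54 for SDHB. There UQCRC1 and UQCRC2 had 0.37 and -0.22, CYC1 and CYCS 0.38 and 0.18, and ATP5B and ATP5A1 0.65 and 0.18. Which gaps held thus depended on the GC value used. The pairs were chosen after their values were seen, so no test is given, and the ratio is of transcripts, not of proteins.

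**Figure D3:**
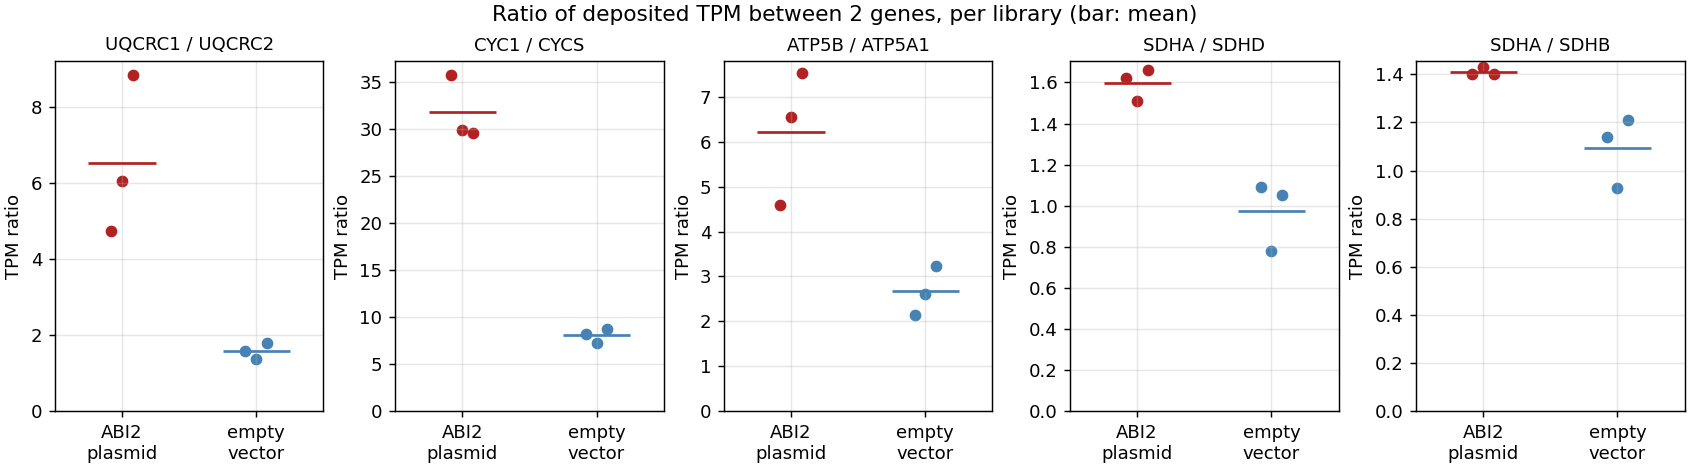
Ratio of deposited TPM between 2 subunit genes in each library, with a linear axis from 0, the ABI2 plasmid libraries on the left and the empty vector libraries on the right, and a bar at each group's mean. The UQCRC1 to UQCRC2 ratio spans 4.73 to 8.84 with the plasmid and 1.36 to 1.79 with the empty vector.

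Summed over members, the deposited TPM came to 15287, 15458 and 16032 with the ABI2 plasmid, against 14251, 14022 and 13965 with the empty vector. Complex IV contributed 6605, 6705 and 7252 TPM of this with the plasmid and 5870, 5713 and 5567 TPM with the empty vector. Complex V came to 5143, 5180 and 5197 TPM with the plasmid and 5255, 5221 and 5256 TPM with the empty vector. The sums of complex IV were thus higher in every plasmid library, while those of complex V were slightly lower in every plasmid library. The 13 mRNAs of the mitochondrial genome, which supply the other subunits of complexes III to V, took 8.1%, 8.06% and 7.59% of all TPM with the plasmid, against 15.3%, 16.4% and 15.0% with the empty vector. In the edgeR test 2 of these 13 rose and 10 fell (76.9%, against 38.0% of all tested genes), and their median was -0.95 on the log2 scale. That count did not hold with the GC correction described further on, where 5 were higher and 5 lower (median -0.01). With GC values from the coding sequence 8 were higher and 1 lower (median 0.33). TPM sum to a fixed total, so a smaller mitochondrial share raises the share of all other genes, and its part in the members' sums was not tested. By limma on log2(TPM + 1), 18 members were called higher and 12 lower, against 28.3% and 40.5% of all genes. There ATP5G2, ATP5L, COX5B, COX7A2L and ATP5S, called by edgeR, did not pass, with log2 differences of 0.03, 0.09, 0.20, 0.23 and -0.26. Of 39 tested nuclear subunits of complex I, edgeR called 25 higher (64.1%, against 35.1% of all genes) and 5 lower (12.8%, against 38.0%). The other 9 missed the threshold, and the median of the 39 was 0.27 on the log2 scale. By limma 15 of them were higher (38.5%) and 7 lower (17.9%). With the GC correction 23 were higher (59.0%, against 28.6% of all genes) and 0 lower (against 22.6%).

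Across the whole transcriptome the fold changes followed the GC content of the transcript, and the members followed it in part. Over the 13314 tested genes with a GC value, Spearman's rho between GC content and log2 fold change was 0.79. Over the 44 members rho was 0.572 with the whole transcript. With the coding sequence alone, rho was 0.694 over the 44 members and 0.764 over 13297 tested genes. These are descriptions across genes of the same 6 libraries, and genes are not independent replicates. The GC bands and bins that follow use the whole transcript. Among all genes under 45% GC, 2.13% were called higher and 83.8% lower, and their median was -1.40 on the log2 scale. The 15 members under 45% GC had a median of -0.07, with 4 higher, 5 lower and 6 not passed. Length differed too: the median annotated transcript had 1126 bases over the tested members and 3024 bases over all tested genes. Among genes under 45% GC with a transcript under 1500 bases, the background was milder, with 4.38% called higher, 64.9% lower and a median of -0.60, and the 6 members there had a median of -0.04, with 1 higher and 3 lower. The members under 45% GC included ATP5G3 (41.0% GC), COX7A2L (43.5%), ATP5L (42.5%) and COX6C (42.1%), all called higher, and COX7C (39.0%), which did not pass. At 45% GC or more, 51.8% of all genes were called higher and 14.8% lower, and of the 29 members there 19 were higher, 5 lower and 5 not passed. When all tested genes were cut into 10 bins of equal size by GC content, 18 of the 19 members in bins 1 to 4, the poorest in GC, lay above the median of their bin, UQCRC2 being the exception. In bins 7 to 10, where the median fold change was highest, 8 of 14 members did.

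**Figure D4:**
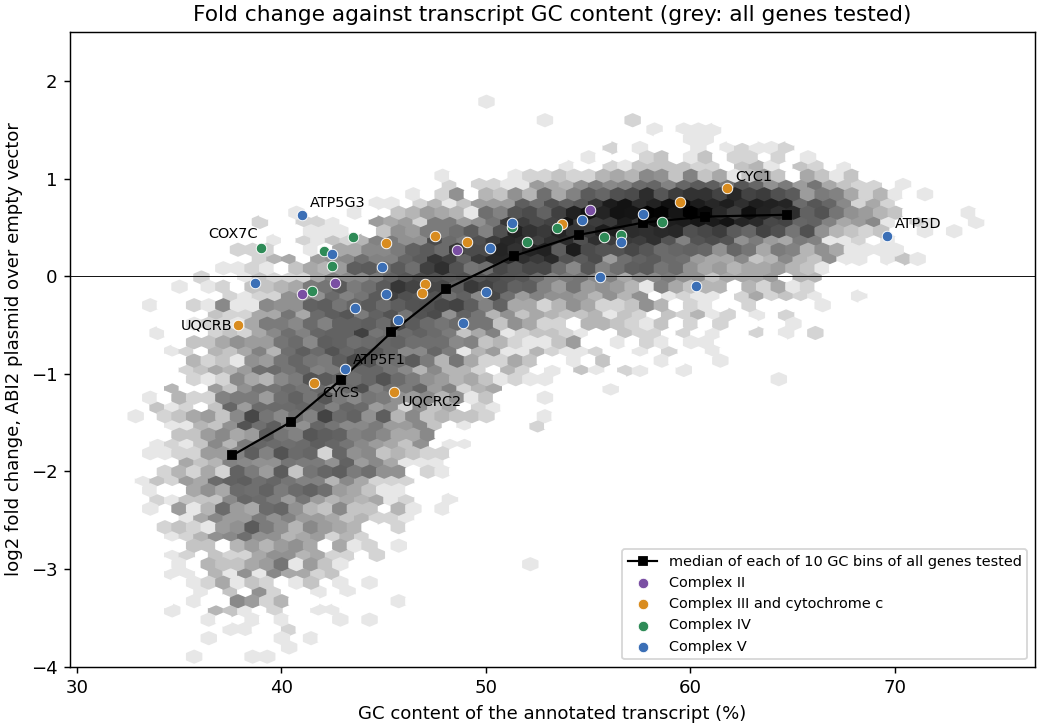
Log2 fold change (ABI2 plasmid over empty vector, vertical axis) against GC content of the annotated transcript in percent (horizontal axis), with all tested genes as grey hexagons, the median of each GC bin as black squares and members as points coloured by complex; the most extreme non-member genes fall outside the vertical axis. Most members on the left, such as ATP5G3, COX7C and UQCRB, lie above the line of medians, and UQCRC2 lies below it.

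With a correction for transcript GC content in each library, 28 members were called higher and 3 lower, and their median was 0.29 on the log2 scale. In that fit 28.6% of all genes were called higher and 22.6% lower. For 16 of the 44 members the sign turned, including 7 of the 10 that had been called lower. In the corrected fit the log2 fold change was 1.26 for SDHD, 1.23 for UQCRB, 0.70 for ATP5C1 and 0.55 for ATP5H, all called higher there. CYCS and ATP5F1 had 0.28 and 0.15, with adjusted p-values of 0.207 and 0.0961. The 3 called lower were UQCRC2, at -0.55 (adjusted p = 0.0269), ATP5O, at -0.17 (adjusted p = 0.0208), and ATP5I, a small membrane subunit that had not passed without the correction, at -0.44 (adjusted p = 0.00473). The call of ATP5O was lost when a replicate block was added (adjusted p = 0.0587). Of the 23 members called higher, 17 were called higher in both fits. CYC1 had 0.31, UQCRC1 0.21 and SDHA 0.28 in the corrected fit, while COX8A had 0.03 and COX4I1 -0.05 and neither passed. A correction of this kind takes out any change that runs with GC content, whatever its source. GC values from the coding sequence, chosen after the data had been seen, gave 27 members higher, against 31.0% of all genes, and 1 lower, against 23.5%. The lower one was SDHD, at -0.29, while UQCRC2 had -0.22 (adjusted p = 0.245) and ATP5I -0.16 (adjusted p = 0.0907). ATP5O was called higher there, at 0.64 (adjusted p = 0.000152). The directions of SDHD and ATP5O and the calls of UQCRC2 and ATP5I thus depended on which GC value was used.

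**Figure D5:**
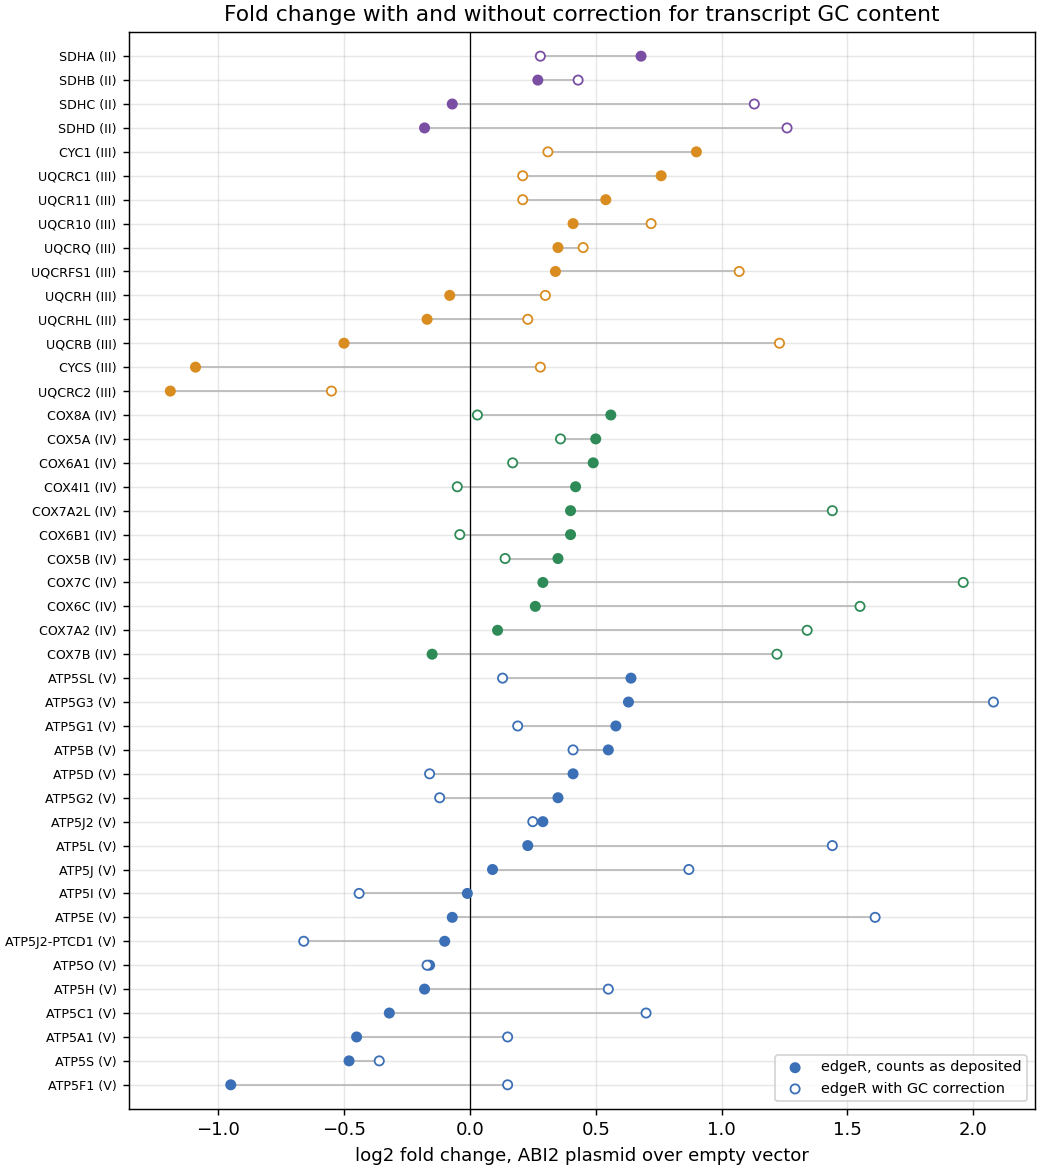
Log2 fold change (ABI2 plasmid over empty vector) of every tested member without GC correction (filled) and with correction for transcript GC content (open), joined by a line and coloured by complex. Members with GC-poor transcripts, such as UQCRB and SDHD, move to the right of 0, and UQCRC2 remains to the left at -0.55.

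Factors that build these complexes also moved both ways. Of 42 rows of assembly factors, in which SCO2 appears more than once, 20 rose and 7 fell, while 15 missed the threshold, and their median was 0.17 on the log2 scale. The shares were 47.6% higher and 16.7% lower, against 35.1% and 38.0% of all tested genes. By limma on log2(TPM + 1), 12 were higher (28.6%, against 28.3% of all genes) and 9 lower (21.4%, against 40.5%). The larger share called higher was thus not seen there. In edgeR, leaving out each library in turn gave 15 to 20 higher and 6 to 7 lower. TACO1, a translational activator of a mitochondrial complex IV subunit, had 71.3, 73.4 and 77.7 CPM with the ABI2 plasmid and 40.4, 41.9 and 42.4 CPM with the empty vector (log2 fold change 0.83, edgeR adjusted p = 2.78e-05). SCO2, a copper chaperone of complex IV, COA4, a complex IV assembly factor, and UQCC3, a complex III assembly factor, rose by 0.74, 0.67 and 0.62 on the log2 scale. LRPPRC, which stabilises mitochondrial mRNAs, had 19.9, 19.0 and 16.1 CPM, against 121, 150.2 and 93.1 CPM with the empty vector (log2 fold change -2.73, adjusted p = 3.26e-05). The groups did not overlap in either TACO1 or LRPPRC. The complex IV factors COX16 and COA1 fell by 0.83 and 0.27 on the log2 scale, and TTC19, which serves complex III, fell by 0.49. With the GC correction COX16 turned to 0.75 and COA1 to 0.33 on the log2 scale. There LRPPRC had -1.50, TACO1 0.34 and UQCC3 0.18, all still called, COA4 had 1.06 and TTC19 -0.38, and SCO2 lost its call at 0.15 (adjusted p = 0.0857). ATPIF1, the natural inhibitor of ATP synthase, had 112, 113 and 109 CPM with the plasmid and 87.4, 91.1 and 88.8 CPM with the empty vector (log2 fold change 0.32, adjusted p = 0.00072), and its groups did not overlap.

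Known regulators of respiratory genes divided into falls and rises. Of 16, 8 fell, where 38.0% of all tested genes did, and 6 rose (37.5%, against 35.1% of all tested genes), while 2 missed the threshold, and their median was -0.19 on the log2 scale. With the GC correction the balance turned, with 3 lower, 7 higher and a median of 0.19. GABPA, the DNA-binding ETS subunit of nuclear respiratory factor 2, had 1.36, 1.57 and 1.34 CPM with the ABI2 plasmid and 10.6, 9.18 and 8.19 CPM with the empty vector (log2 fold change -2.70, edgeR adjusted p = 1.55e-05). Its partner GABPB1 fell by 1.13 on the log2 scale, but had 0.49 with the GC correction. TFAM, which packages and transcribes the mitochondrial genome, had 14.5, 14.1 and 10.6 CPM, against 57.1, 62.0 and 53.6 CPM with the empty vector (log2 fold change -2.14, adjusted p = 1.94e-05). The coactivator PPARGC1A had 1.64, 0.866 and 1.24 CPM, against 8.16, 10.2 and 6.43 CPM with the empty vector (log2 fold change -2.72, adjusted p = 0.000109). For GABPA, TFAM and PPARGC1A the plasmid libraries lay below the empty vector libraries. These 3 were the ones still called lower with the GC correction, at smaller log2 fold changes of -0.90, -0.46 and -1.22. The mitochondrial RNA polymerase POLRMT, the nuclear receptor ESRRA, the NFE2L2 inhibitor KEAP1 and the coactivator PPRC1 rose by 0.91, 0.86, 0.71 and 0.65. With the GC correction they had 0.31, 0.26, 0.15 and 0.17, and KEAP1 lost its call (adjusted p = 0.0879). NRF1, nuclear respiratory factor 1, had 20.8, 25.9 and 26.5 CPM with the plasmid and 22.7, 21.3 and 23.0 CPM with the empty vector, and did not pass (adjusted p = 0.318).

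Promoters of the members are shown because NRF1 and ETS factors are known to bind respiratory gene promoters and because those regulators were measured here. RefSeq (GRCh38.p14) gave a single promoter of 300 bases, 250 before and 50 after the start, for 32 members, 28 of them tested. Each was searched on both strands for the NRF1 core GCATGCGC, the ETS motif CCGGAAG and the YY1 motif AAGATGGC. Matches of different motifs did not overlap in members. The NRF1 core was in 7 of the 28 (25.0%), against 5.79% of the promoters of all tested genes and 3.05% of all 35116 promoters. The ETS motif was in 13 (46.4%), against 21.0% and 10.3%, and the YY1 motif in 4 (14.3%), against 5.91% and 2.89%. Of the 16 members called higher, 3 held the NRF1 core and 9 the ETS motif. Of the 7 called lower, 3 held the NRF1 core and 2 the ETS motif. Both motifs were in SDHB, COX5B and COX6A1, called higher, in SDHD, called lower, and in ATP5I, which did not pass. The lower direction thus rested on SDHD alone (log2 fold change -0.18), whose call was lost without empty vector library 2. SDHD had 1.26 with correction for transcript GC content and -0.29 with GC values from the coding sequence. A match is a description of letters in this window and not a site. Stretches are shown for SDHB, SDHD and COX5B, and not for COX6A1 and ATP5I. The stretches that hold both motifs, with the matches in capitals, run 5′ to 3′ on the gene's strand and lie at chr1:17054144-17054242 (minus strand) for SDHB, chr11:112086753-112086812 (plus strand) for SDHD and chr2:97645916-97646041 (plus strand) for COX5B:
SDHB: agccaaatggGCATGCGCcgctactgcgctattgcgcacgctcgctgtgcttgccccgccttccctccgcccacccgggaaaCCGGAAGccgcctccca
SDHD: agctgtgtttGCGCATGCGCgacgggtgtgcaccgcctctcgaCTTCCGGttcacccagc
COX5B: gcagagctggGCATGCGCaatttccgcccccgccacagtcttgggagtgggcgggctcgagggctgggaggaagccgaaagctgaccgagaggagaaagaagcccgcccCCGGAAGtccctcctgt
In SDHD the NRF1 core occurs on both strands within the first run of capitals, and its ETS match is on the opposite strand. The start used for these windows is RefSeq's, and in SDHB and SDHD the ETS match lies inside the deposited gene coordinates. Those begin at 17054170 for SDHB, on the minus strand, and at 112086773 for SDHD.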

How the data were processed

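RNA of 6 MDA-MB-231 libraries, 3 with an ABI2 plasmid and 3 with an empty vector, grouped by their titles, was analysed from the gene table the authors deposited. Per the file headers it gives a read count, a TPM value and an FPKM value per gene and library. The deposited counts were whole numbers, the deposited TPM were length-scaled and summed to 999953 to 999992 per library, and the deposited FPKM were not used. The submitters' processing notes name GRCh38, StringTie 1.3.3b, HISAT2 2.1.0, Trimmomatic and FastQC 0.11.2. For the annotation, the counting program and the strand setting, nothing is stated in the labels or headers. The last row broke off and was left out, leaving 20260 rows.

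Counts were fitted over all genes with edgeR 4.0.16 in R 4.3.3 (TMM, filterByExpr with a minimum count of 10, robust quasi-likelihood, two-sided F test), which kept 13325 genes. P-values were Benjamini-Hochberg adjusted over all of them, with a threshold of 0.05. The SE of a log2 fold change is its size over the root of F. Overlap between groups and means ± SD are on CPM. Libraries of a group differed by more than counting noise (chi-square per degree of freedom 21.1 to 48.4), so none was counted as a copy. Intervals and floors cover counting error only.

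GC content and length came from GENCODE 29, taking for each gene the transcript whose coding sequence is longest (20221 rows matched, all 53 members included). In the GC-corrected fit each library's log2 CPM deviations were smoothed over GC (natural spline, 5 degrees of freedom) and the smooth entered as an offset. Coordinates are the table's, on GRCh38, and coding starts are from GENCODE 29. The fits were tested on simulated counts with 200 changed genes. Where a GC trend was put into the simulated counts, the fit without GC correction also called most of the unchanged genes, and the GC-corrected fit called few of them. Of genes given a 1.5-fold change, drawn from all levels, the fit without GC correction called 37.3% where no trend was put in. The GC-corrected fit called 41.8% of them where a GC trend was put in. Missing the threshold thus does not show that a gene was unchanged. Alternatives were DESeq2 1.42.0, limma 3.58.1 on log2(TPM + 1), other scalings and filters, a replicate block, GC and length corrections, and each library left out in turn.

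The members, the lists of assembly factors and regulators, and the tests were chosen with earlier results of these data known, and the correction by coding-sequence GC was added after the data had been seen. The rule for named genes took, per complex, up to 4 members with the smallest p in each direction, the isoform groups, any member with a library that stands apart, ABI2, the ATP synthase inhibitor, and up to 4 per direction of the assembly and regulator lists.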

Additional observations from a re-analysis of the deposited data

How the results depend on the processing

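The number of members called higher stayed between 18 and 28 under every alternative run, and the members' median log2 fold change stayed above 0. The 18 by limma were 40.9%, against 28.3% of all genes, and the 28 with GC correction were 63.6%, against 28.6%. They were not the same members throughout. Of the 23 called higher, 17 were also called higher with GC correction and 13 with GC and length correction. Among the 24 called higher with GC and length correction, 5 had been called lower. The median was 0.18 without TMM scaling, which shifted the median of all genes by -0.10, 0.25 with no filter on low counts, 0.14 by limma on log2(TPM + 1), 0.18 with GC and length correction and 0.34 with GC correction by coding sequence. The members called lower numbered 3 with GC correction, 1 with GC correction by coding sequence, 2 with the replicate block and GC correction together, 7 with GC and length correction and 12 without TMM scaling or by limma. Leaving out 1 library at a time gave 22 to 24 members higher, 7 to 10 lower and a median of 0.25 to 0.31.

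The following log2 fold changes turned sign, and beyond the GC terms themselves the cause was not tested. With GC correction they were ATP5A1 0.15, ATP5C1 0.70, ATP5D -0.16, ATP5E 1.61, ATP5F1 0.15, ATP5G2 -0.12, ATP5H 0.55, COX4I1 -0.05, COX6B1 -0.04, COX7B 1.22, CYCS 0.28, SDHC 1.13, SDHD 1.26, UQCRB 1.23, UQCRH 0.30, UQCRHL 0.23, GABPB1 0.49, COA1 0.33 and COX16 0.75. The same genes turned with the replicate block and GC correction, where ATP5C1 had 0.69, ATP5D -0.14, CYCS 0.25, SDHC 1.11 and COX16 0.74, and the others the values just given. With GC and length correction they were ATP5A1 0.34, ATP5C1 0.44, ATP5D -0.26, ATP5E 1.55, ATP5F1 0.08, ATP5G2 -0.29, ATP5H 0.32, ATP5SL -0.04, COX4I1 -0.23, COX5B -0.06, COX6A1 -0.0046, COX6B1 -0.22, COX7B 1.05, COX8A -0.11, CYCS 0.30, SDHC 1.49, SDHD 1.0, UQCRB 0.92, UQCRH 0.08, UQCRHL 0.08, GABPB1 0.33, COA1 0.29 and COX16 0.49. With GC correction by coding sequence they were ATP5A1 0.18, ATP5C1 1.06, ATP5D -0.15, ATP5E 1.13, ATP5H 1.04, ATP5O 0.64, COX5B -0.11, COX7B 1.13, COX8A -0.0031, CYCS 0.18, SDHC 0.03, UQCRB 0.90, UQCRHL 0.18, GABPB1 0.36 and COX16 0.76.

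Other settings turned few signs. By limma on log2(TPM + 1), ATP5J2-PTCD1 had 0.10, ATP5J -0.08, COX6C -0.06, COX7A2 -0.10, SDHC 0.20, C14orf2 -0.08 and USMG5 -0.02. Without TMM scaling ATP5J had -0.0056 and C14orf2 -0.04. ATP5I had 0.0084 with DESeq2 and with RLE size factors and 0.00082 with no filter. With 1 library left out, ATP5I ranged from -0.06 to 0.07, C14orf2 from -0.06 to 0.22 and ATP5J2-PTCD1 from -0.40 to 0.29. None of these genes had passed the test except COX6C. Without turning sign, single genes lost and gained calls under GC correction (6 lost, 6 gained), GC and length correction (7 and 4), GC correction by coding sequence (8 and 5), limma (7 and 3), no TMM (2 and 2), DESeq2 (2 and 1), and RLE size factors or either other filter (2 and 0 each).

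Deviations of libraries that share a number had small correlations (0.022, 0.018 and 0.061), against -0.048 to 0.025 for the other combinations. With 3 libraries per group, such values cannot settle whether the numbers pair the libraries. ABI2 plasmid libraries 2 and 3 correlated best with their own number and library 1 with empty vector library 2. A replicate block gave 23 members higher, 8 lower and a median of 0.28. ATP5H, ATP5O and COX6C then lost their calls and ATP5D gained one (0.44, adjusted p = 0.0316). At this depth 9 rows had too few counts to test. GC corrections rest on 1 annotated transcript per gene.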

Other observations

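Some subunits of complexes IV and V carry older names that the naming rule does not take. They were chosen after their values were seen. NDUFA4, now regarded as a complex IV subunit, had 135, 134 and 164 CPM with the ABI2 plasmid and 122, 129 and 119 CPM with the empty vector (log2 fold change 0.23, edgeR adjusted p = 0.0479). The groups did not overlap, but the adjusted p was 0.072 without plasmid library 3 and 0.107, 0.0558 and 0.143 without empty vector libraries 1, 2 and 3. USMG5, a small ATP synthase subunit that helps the enzyme pair into dimers, had 127, 119 and 158 CPM with the plasmid and 116, 126 and 115 CPM with the empty vector (adjusted p = 0.183), and the groups overlapped. C14orf2, a small proteolipid of ATP synthase, had 50.9, 72.1 and 77.8 CPM, against 69.5, 64.0 and 59.4 CPM with the empty vector (adjusted p = 0.759), so plasmid library 1 was the lowest of all 6 and plasmid library 3 the highest.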
